A study of Homo sapiens with 8 samples.

Results

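ATF4 and 9 genes known as its targets or partners (DDIT3, TRIB3, ASNS, PSAT1, PHGDH, CHAC1, SESN2, DDIT4 and VLDLR) were followed in BEAS-2B cells after formaldehyde gas. The genes were listed by name and matched to 1 gene identifier each, and all 10, of the 58735 genes in the deposited tables, passed the filter on low counts. BEAS-2B is an immortalised human bronchial epithelial cell line. Cultures at an air-liquid interface received 1 ppm formaldehyde (FA) or humidified clean air (CA) for 2 h and recovered for 6 h. RNA was depleted of ribosomal RNA and sequenced as such (input, IN) or after immunoprecipitation with a monoclonal antibody raised against 8-oxoguanine (IP), an oxidised form of guanine. This gave 8 libraries in 4 groups of 2 biological replicates, numbered 1 and 3 in the deposited data: CA_IN, FA_IN, CA_IP and FA_IP. The 4 groups include no known inducer of ATF4 and no immunoprecipitation without the specific antibody. The sources name 2 different clones for the antibody.

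The integrated stress response is a shared answer of cells to several kinds of stress. The kinases PERK, GCN2, PKR and HRI phosphorylate the translation factor eIF2alpha, which slows protein synthesis in general. The same step favours translation of the ATF4 mRNA, whose upstream reading frames otherwise hold it back. The ATF4 protein, a bZIP transcription factor, then raises genes for amino acid synthesis and transport, tRNA charging, redox balance and, when stress persists, cell death. The amount of ATF4 mRNA is therefore only part of how active ATF4 is, and its target mRNAs are commonly read beside it.

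ATF4 acts through elements in which it pairs with C/EBP proteins. One form of the element, TGATGNAA, was looked for on both strands (TTNCATCA on the other) in RefSeq promoter windows of GRCh38.p14 that run from 250 bases before to 50 bases after a transcription start. The 10 genes have 15 such windows, of which 2 hold the letters, and 1270 of all 35116 windows (3.62%) hold them. Both stretches are shown because they hold the letters of this form of the element, with the match in capitals. Binding of ATF4 to them was not measured.
ASNS, chr7:97872449-97872496, minus strand: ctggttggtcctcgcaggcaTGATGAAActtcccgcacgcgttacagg
CHAC1, chr15:40953242-40953289, plus strand: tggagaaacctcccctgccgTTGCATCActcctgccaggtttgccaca
The match starts 68 bases before the start site in the ASNS window and 209 bases before it, on the opposite strand, in the CHAC1 window. A missing match says only that these letters are not in that window.

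The input libraries held 26152651 to 45144392 expected counts and the IP libraries 16883500 to 23658012. Expected counts are RSEM's estimate of the reads of each isoform, and were summed over the isoforms of a gene. Values below are CPM, counts scaled to a library total of 1000000, after edgeR's TMM normalization unless TPM is named, the same kind of scale with each isoform divided by its length. In all, 18242 genes were tested with edgeR's quasi-likelihood model of the 8 libraries and Benjamini-Hochberg adjustment at 0.05. Epithelial markers (KRT7, KRT8, KRT18, KRT19, EPCAM, CDH1) summed to 859 to 1032 TPM in the input libraries. The mesenchymal markers VIM, CDH2 and FN1 summed to 238 to 294 TPM, while 4 immune markers summed to 0.94 to 1.55 TPM, 3 endothelial markers to 0.04 to 0.12 TPM and 3 fibroblast markers to at most 0.08 TPM.

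Per length, ATF4 was by far the most abundant of the 10 in clean air input, at 73.8 ± 9.39 TPM (SD, n = 2). DDIT4 had 24.7 ± 2.46 TPM (SD, n = 2) and PHGDH 20.5 ± 1.72 TPM (SD, n = 2). PSAT1, DDIT3, ASNS and TRIB3 followed between 10.2 and 6.95 TPM on average, and the range of ASNS, 7.01 to 10.96 TPM, overlapped that of each of the other three. SESN2 (2.63 ± 0.269 TPM, SD, n = 2) and CHAC1 (1.53 ± 0.163 TPM, SD, n = 2) lay lower. VLDLR was near the limit of what was measured, at 0.08 TPM in both libraries, or 53 and 45 expected counts. The order was the same in formaldehyde input but for 2 changes. DDIT4, at 16.5 ± 2.31 TPM (SD, n = 2), lay below PHGDH at 21.0 ± 1.59 TPM (SD, n = 2). DDIT3, at 10.8 ± 1.92 TPM (SD, n = 2), had a higher mean than PSAT1 at 9.92 ± 0.537 TPM (SD, n = 2), with overlapping libraries.

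**Figure D1:**
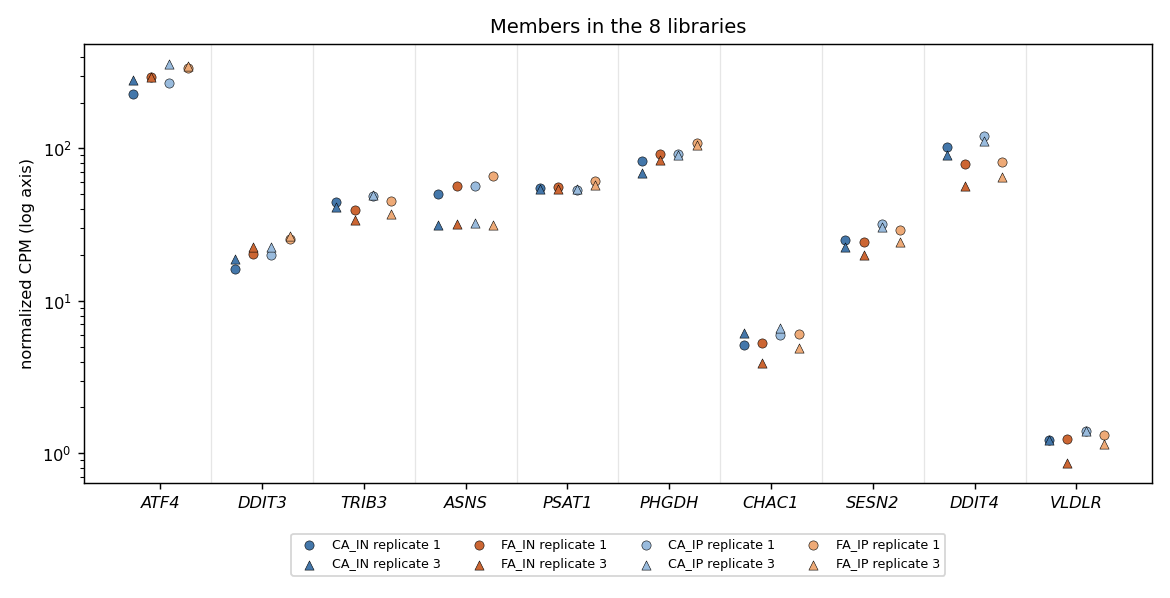
Normalized CPM (log axis) of the 10 genes in the 8 libraries. Each point is 1 library, circles are replicate 1 and triangles replicate 3, dark symbols are input and light symbols IP, blue is clean air and orange formaldehyde. The replicates of ASNS lie far apart in all 4 groups, and DDIT4 lies lower in formaldehyde than in clean air in both fractions.

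The first comparison, FA_IN with CA_IN, asks whether these mRNAs differed in abundance 6 h after the exposure. None of the 10 genes passed this test, which called 1 gene in all (0.00548% of those tested, 611 at an unadjusted p under 0.05). DDIT4 passed in 2 alternative fits, described with its values. The 10 did not move together. The fold changes were positive for 5 genes and negative for 5, with a median log2 fold change of -0.04 against 0.02 over all genes tested. DDIT4 had the largest difference, 1.42-fold lower after formaldehyde, and DDIT3 the largest positive one, 1.22-fold. The single gene called, named after its value was seen, was BIVM-ERCC5, a read-through gene that shares sequence with BIVM and ERCC5, so that its counts are uncertain. RNA from fewer cells and less RNA per cell cannot be told apart in bulk libraries scaled to a common total.

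Neither of the transcription factors among the 10 passed. ATF4 (ENSG00000128272, chromosome 22, 39519695 to 39522683, plus strand of GRCh38) had 229 and 281 CPM in CA_IN and 295.6 and 295.7 CPM in FA_IN. Both formaldehyde libraries lay above both clean air libraries, but the clean air libraries were further from each other than the higher of them was from formaldehyde. The log2 fold change was 0.22 (SE 0.14, 95% interval -0.10 to 0.54, edgeR adjusted p = 0.945).

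DDIT3, which encodes the pro-apoptotic factor CHOP (ENSG00000175197, chromosome 12, 57516588 to 57521737, minus strand), had 16.2 and 18.9 CPM in CA_IN and 20.3 and 22.6 CPM in FA_IN. The groups did not overlap, and the log2 difference was 0.33 in replicate 1 and 0.26 in replicate 3. The fitted log2 fold change of 0.29 (SE 0.13, 95% interval -0.01 to 0.59) did not pass (edgeR adjusted p = 0.945). The 3′ end of DDIT3 overlaps that of MARS1, which lies on the plus strand at 57475445 to 57517569, and the RSEM command in the study's methods sets no strand option, so reads from the shared stretch could not be assigned by strand. MARS1, the methionyl-tRNA synthetase, had a log2 fold change of 0.15 (SE 0.08, edgeR adjusted p = 0.945).

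TRIB3 encodes a pseudokinase that ATF4 and CHOP induce and that restrains both (ENSG00000101255, chromosome 20, 362835 to 397559, plus strand). It went the other way from DDIT3, with 44.8 and 41.0 CPM in CA_IN and 39.4 and 34.2 CPM in FA_IN. The groups did not overlap. The log2 fold change was -0.22 (SE 0.13, 95% interval -0.51 to 0.06, edgeR adjusted p = 0.945).

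Among the enzymes of amino acid synthesis, ASNS, the asparagine synthetase (ENSG00000070669, chromosome 7, 97851677 to 97872542, minus strand), varied most between replicates. It had 50.1 CPM in replicate 1 and 31.5 CPM in replicate 3 of CA_IN, and 56.5 and 31.7 CPM in FA_IN. Replicate 1 lay above replicate 3 by 0.67 to 1.08 on the log2 scale in the 4 groups, whereas formaldehyde differed from clean air by 0.17 in replicate 1 and 0.01 in replicate 3. The interval of its log2 fold change of 0.11 ran from -0.83 to 1.05, the widest of the 10. It came from the model with group means only, which counts the distance between replicates as error. That model bounded the change of ASNS only loosely.

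PSAT1 and PHGDH encode successive enzymes of serine synthesis. PSAT1 (ENSG00000135069, chromosome 9, 78297125 to 78330093, plus strand) was the steadiest, with 54.7 and 53.8 CPM in CA_IN and 56.0 and 54.5 CPM in FA_IN. Its log2 fold change was 0.03 with a 95% interval of -0.17 to 0.23. PHGDH (ENSG00000092621, chromosome 1, 119648411 to 119744218, plus strand) had 83.2 and 69.5 CPM in CA_IN and 92.5 and 83.6 CPM in FA_IN, so that the groups were separated by less than 1 CPM. Its log2 fold change was 0.21 (SE 0.10, 95% interval -0.03 to 0.44, edgeR adjusted p = 0.945).

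CHAC1 encodes an enzyme that breaks down glutathione (ENSG00000128965, chromosome 15, 40952962 to 40956512, plus strand). It had 5.15 and 6.18 CPM in CA_IN and 5.28 and 3.93 CPM in FA_IN. The groups overlapped. The log2 fold change of -0.30 (SE 0.21) rested on replicate 3, which differed by -0.65, while replicate 1 differed by 0.04.

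SESN2 and DDIT4 encode Sestrin 2 and REDD1, inhibitors of the growth kinase mTORC1. SESN2 (ENSG00000130766, chromosome 1, 28259518 to 28282491, plus strand) had 25.1 and 22.4 CPM in CA_IN and 24.5 and 19.9 CPM in FA_IN, with overlapping groups and a log2 fold change of -0.10 (SE 0.14). DDIT4 (ENSG00000168209, chromosome 10, 72273919 to 72276036, plus strand) had 101.7 and 90.9 CPM in CA_IN and 78.7 and 57.0 CPM in FA_IN. Both formaldehyde libraries lay below both clean air libraries, with log2 differences of -0.37 in replicate 1 and -0.67 in replicate 3.

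The log2 fold change of DDIT4 was -0.51 (SE 0.16, 95% interval -0.88 to -0.14), and its unadjusted p ranked 68 among the 18242 genes, yet the edgeR adjusted p was 0.945. Without the filter on low counts it passed, at a log2 fold change of -0.53 (edgeR adjusted p = 0.0111), in a fit that called 0.221% of 35784 genes lower. It also passed with the replicate number as a block, at -0.52 (edgeR adjusted p = 0.0196), in a fit that called 1.34% of genes lower. The methods state that both chambers were run in parallel, but the sources do not tie a number to an exposure. The fold change was between -0.31 and -0.77 with any 1 library left out, and -0.31 without replicate 3 of FA_IN.

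VLDLR, a lipoprotein receptor that PERK and ATF4 signalling raises in other cells (ENSG00000147852, chromosome 9, 2621182 to 2660056, plus strand), had 1.22 and 1.23 CPM in CA_IN and 1.25 and 0.859 CPM in FA_IN. As for CHAC1, the log2 fold change of -0.23 (SE 0.27) rested on replicate 3, and leaving out that library of FA_IN brought it to 0.0060.

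Across the list, 3 genes had both FA_IN libraries above both CA_IN libraries (ATF4, DDIT3 and PHGDH), where 18.1% of all genes did. Both FA_IN libraries lay below both CA_IN libraries for 2 (TRIB3 and DDIT4), where 15.8% of all genes did. These counts do not set the 10 apart from genes in general.

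The immunoprecipitated libraries give a further reading of the same RNA pools. According to the methods, each pool was split into the 2 fractions, so they are a repeat of the measurement and not further replicates of the exposure. DDIT4 had 119.9 and 111.7 CPM in CA_IP and 81.9 and 64.9 CPM in FA_IP, again lower after formaldehyde in both replicates, by -0.55 and -0.78 on the log2 scale. DDIT3 had 19.9 and 22.5 CPM in CA_IP and 25.6 and 26.5 CPM in FA_IP, higher in both. TRIB3 had 48.7 and 49.3 CPM in CA_IP and 45.4 and 37.3 CPM in FA_IP.
ATF4 did not repeat its separation. It had 269 and 358 CPM in CA_IP and 337 and 349.7 CPM in FA_IP, and replicate 3 differed by only -0.03 on the log2 scale. In IP, 3 genes were higher without overlap (15.8% of all genes) and 4 were lower (17.2% of all genes). In both fractions 2 genes, DDIT3 and PHGDH, were higher and 2, TRIB3 and DDIT4, were lower, where 5.89% and 6.17% of all genes were.

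**Figure D2:**
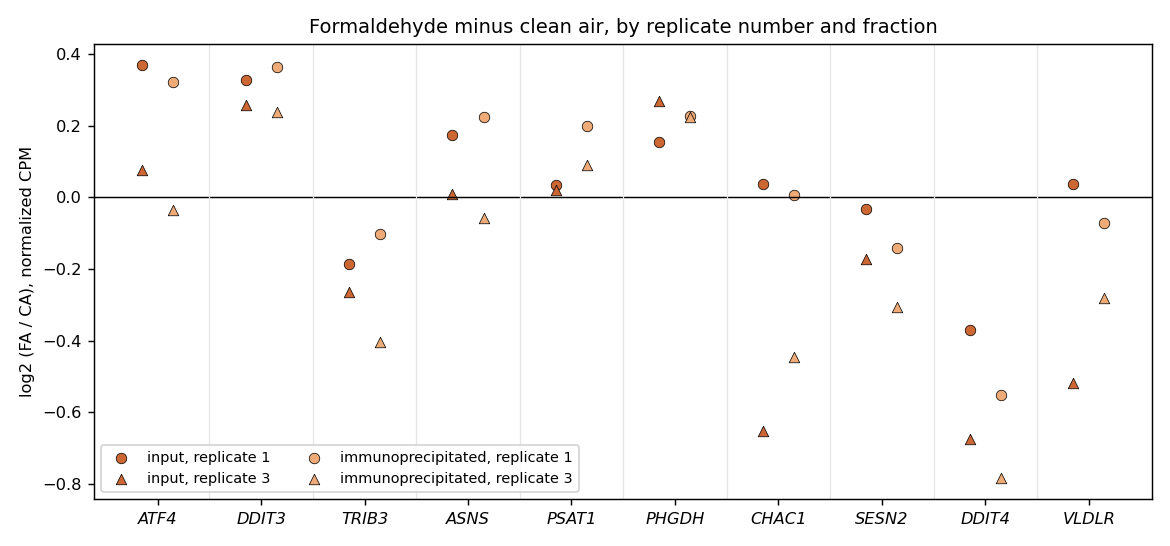
Difference between formaldehyde and clean air, log2 (FA / CA) of normalized CPM, for each gene by replicate number (circles 1, triangles 3) in input (dark) and IP (light) RNA. All 4 points lie below 0 for DDIT4, TRIB3 and SESN2 and above 0 for DDIT3, PHGDH and PSAT1, while CHAC1 and VLDLR differ in replicate 3 far more than in replicate 1.

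A wider list of 59 genes of the pathway, of which 58 passed the filter, held 0 calls in either direction (edgeR, 2 at an unadjusted p under 0.05) and 36 positive and 22 negative values in input. The eIF2alpha kinases ran from -0.32 for EIF2AK3 (PERK, SE 0.15) through -0.08 for EIF2AK2 (PKR) and -0.04 for EIF2AK1 (HRI) to 0.09 for EIF2AK4 (GCN2). PPP1R15A (GADD34), the stress-induced subunit that returns eIF2alpha to its unphosphorylated form, had a log2 fold change of 0.13 (SE 0.10), and its constitutive counterpart PPP1R15B one of -0.30 (SE 0.16).
The largest value among the bZIP factors fixed for naming was that of ATF3, an early stress factor. It had 20.1 and 29.7 CPM in CA_IN and 35.1 and 36.8 CPM in FA_IN, without overlap, and a log2 fold change of 0.53 (SE 0.21, edgeR adjusted p = 0.945). Its clean air libraries differed by more than the higher of them did from either formaldehyde library.
ATF5, CEBPB and CEBPG, partners or relatives of ATF4, lay at -0.08, -0.09 and -0.05. The cystine transporter SLC7A11 had -0.17 (SE 0.12) and its heavy chain SLC3A2 0.05 (SE 0.08). The 11 genes of tRNA charging and export lay between -0.02 and 0.16, 10 of them positive and 0 called. Their median was 0.08, against 0.02 over all genes tested, and the 11 were not tested as a set. NUPR1 and GDF15, named after their values were seen, had 0.58 (SE 0.43) and 0.39 (SE 0.26) on the log2 scale. NUPR1 had under 1 CPM in all 8 libraries. On the negative side, JDP2 and HERPUD1, also named after their values were seen, had -0.35 and -0.31. JDP2 had 6.52 and 6.34 CPM in CA_IN and 5.24 and 4.89 CPM in FA_IN, without overlap. HERPUD1 had 14.5 and 16.3 CPM in CA_IN and 12.5 and 12.4 CPM in FA_IN, also without overlap.

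**Figure D3:**
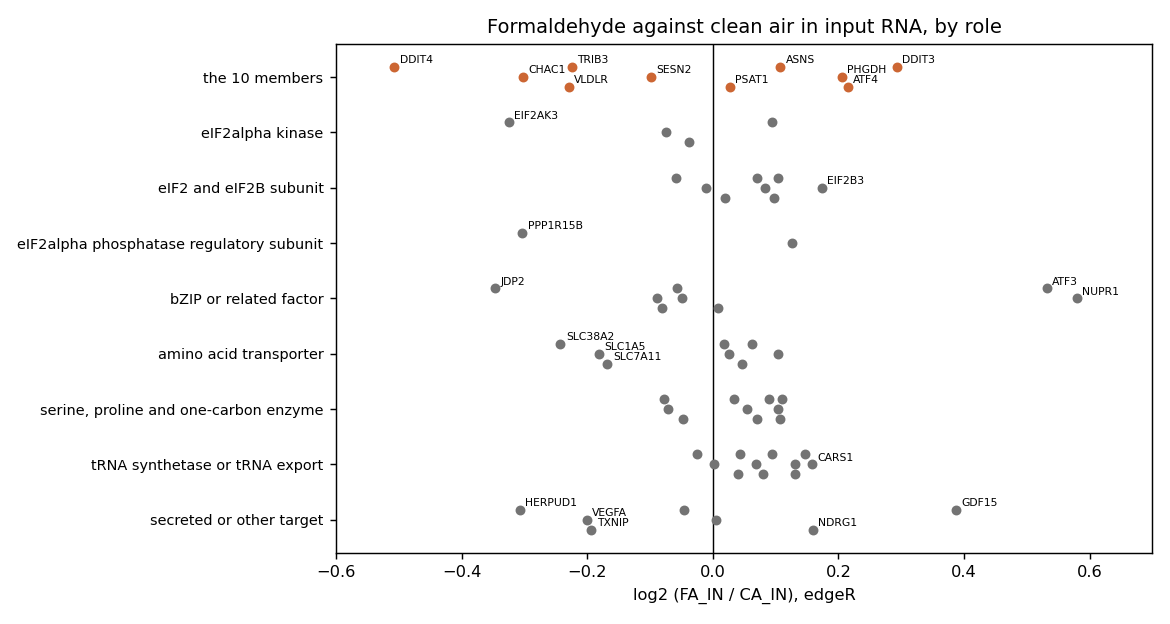
Log2 fold change of FA_IN against CA_IN for the 10 genes (orange) and 58 other genes of the pathway (grey), 1 point a gene, arranged by role on the vertical axis, with only the vertical spread within a role being arbitrary. The values run from -0.51 for DDIT4 to 0.58 for NUPR1, on both sides of 0 in each row of the plot, and the 10 genes and those at least 0.15 from 0 are named.

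The next comparisons set IP against input in each treatment and ask whether an mRNA was recovered in IP more or less than mRNAs in general. Without an immunoprecipitation lacking the specific antibody, binding by the antibody cannot be told apart from other differences between the fractions. TMM scaling put the median log2 fold change of all genes at 0.02 in clean air and 0.00 in formaldehyde, and the values below are relative to that. Scaling by library size moved these medians to 0.16 and 0.17. In CA_IP against CA_IN 9 of the 10 genes had positive values, with a median of 0.23, and in FA_IP against FA_IN all 10 did, with a median of 0.23. Both IP libraries lay above both input libraries for 6 genes in clean air (22.9% of all genes did) and for 4 in formaldehyde (18.9% of all genes did), and below them for 0 in either.

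None of the 10 passed in either treatment in the model without a block. That fit called 1.91% of genes in clean air (27 higher and 322 lower) and 1.5% in formaldehyde (6 higher and 268 lower), and gave an unadjusted p under 0.05 to 2 of the 10 in clean air and 1 in formaldehyde. With library size as the scale, the calls were 821 higher and 336 lower in clean air and 318 higher and 243 lower in formaldehyde. With the RNA pool as a block, which compares each IP library with the input from the same pool, 5 genes passed as higher in CA_IP (11.6% of all genes did) and 4 as higher in FA_IP (5.45% of all genes did), and 0 as lower. A block for the replicate number alone called SESN2 and PHGDH in CA_IP (6.77% of all genes were higher in that fit) and 0 of the 10 in FA_IP. The pool block leaves 2 residual degrees of freedom before edgeR's pooling across genes.

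SESN2 had the largest value in clean air. It had 25.1 and 22.4 CPM in CA_IN and 32.2 and 30.3 CPM in CA_IP, a 1.31-fold difference (log2 fold change 0.39, SE 0.14, edgeR adjusted p = 0.287). With the pool block the value was 0.40 (SE 0.08, adjusted p = 0.000917). In formaldehyde it had 24.5 and 19.9 CPM in FA_IN and 29.1 and 24.5 CPM in FA_IP, and the blocked value was 0.27 (SE 0.08, adjusted p = 0.0338).

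ATF4 was higher in IP than in the input of the same pool by 0.24 and 0.35 on the log2 scale in clean air and by 0.19 and 0.24 in formaldehyde. Its clean air groups overlapped because the pools differed. The blocked log2 fold changes were 0.29 (SE 0.06, edgeR adjusted p = 0.00168) and 0.22 (SE 0.06, edgeR adjusted p = 0.0269), against adjusted p of 0.439 and 0.798 without the block.

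PHGDH had 92.4 and 90.3 CPM in CA_IP and 108.1 and 105.5 CPM in FA_IP, above both input libraries of the same treatment. The blocked log2 fold changes were 0.26 (SE 0.07, edgeR adjusted p = 0.0123) in clean air and 0.28 (SE 0.07, edgeR adjusted p = 0.0124) in formaldehyde, against adjusted p of 0.349 and 0.422 without the block.
DDIT3 had blocked values of 0.27 (SE 0.08, edgeR adjusted p = 0.0267) and 0.28 (SE 0.08, edgeR adjusted p = 0.0355), against 0.465 and 0.612 without the block. Both fits used counts that could hold reads of MARS1, whose blocked value was 0.23 (SE 0.07, edgeR adjusted p = 0.0161) in clean air and 0.19 (SE 0.07, edgeR adjusted p = 0.0732) in formaldehyde.

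DDIT4 passed in clean air with the block, at 0.27 (SE 0.07, edgeR adjusted p = 0.00695, against 0.585 without it). In formaldehyde the blocked value was 0.12 (SE 0.07, edgeR adjusted p = 0.34). The difference between the treatments was -0.14 (SE 0.10) in that model and did not pass.
TRIB3, ASNS, CHAC1 and VLDLR did not pass in either treatment with either model. Their log2 fold changes without the block lay between 0.13 and 0.25, with the widest intervals for ASNS and VLDLR. PSAT1 stood apart from the others in clean air, with a log2 fold change of -0.02 (SE 0.09), and had 0.10 (SE 0.09) in formaldehyde.

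**Figure D4:**
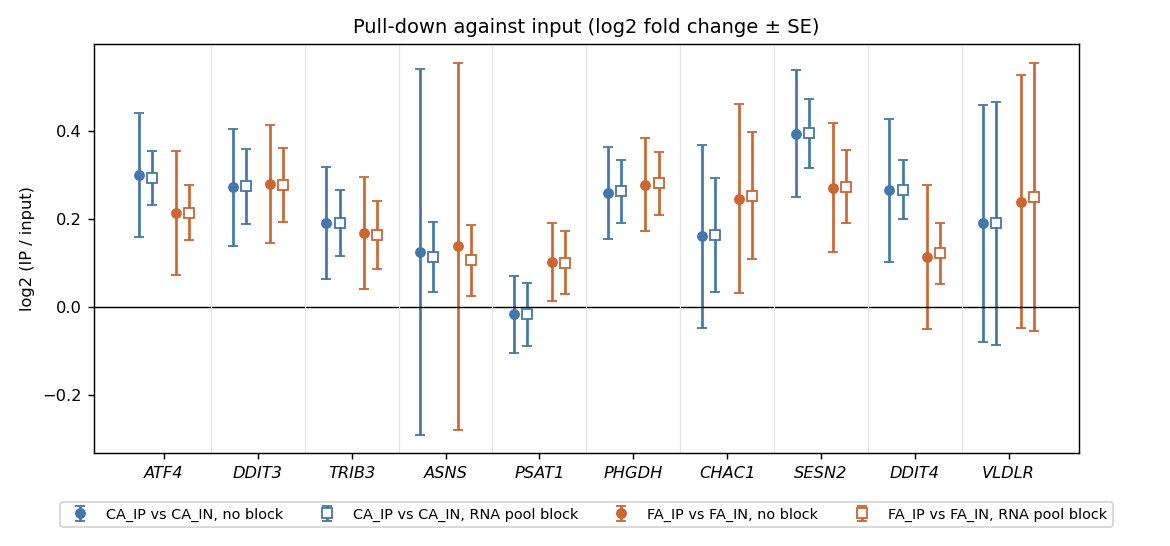
Log2 fold change of IP against input in clean air (blue) and formaldehyde (orange) with SE as bars, from the model without a block (filled circles) and with the RNA pool as a block (open squares). Nearly all points lie between 0.1 and 0.4, PSAT1 in clean air lies at -0.02, and the block shortens the bars of ASNS most.

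The interaction tests whether IP against input differed between formaldehyde and clean air. A change after the exposure in the recovery of a gene in IP, relative to genes in general, would stand here. A shift in recovery shared by all genes would be removed by the scaling and could not be seen. No gene of the series was called (0% of 18242, edgeR, 195 at an unadjusted p under 0.05, and 3 by DESeq2), and 0 of the 10 had an unadjusted p under 0.05. With the pool block 0.137% of genes were called, again 0 of the 10. Without the block the 10 values lay between -0.15 for DDIT4 and 0.12 for PSAT1. The intervals from the model with the pool block bound what could have been missed relative to genes in general. They ran from -0.26 to 0.10 for ATF4, from -0.19 to 0.23 for PHGDH, from -0.35 to 0.06 for DDIT4 and from -0.24 to 0.22 for ASNS. For ASNS the interval without the block ran from -1.33 to 1.35. With 1 library left out and no block, the value itself ran from -0.62 to 0.52 for ASNS and from -0.28 to 0.13 for ATF4. VLDLR had the widest interval with the block, from -0.79 to 0.91.

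Among the 58 other pathway genes, 0 passed in any of these comparisons without the block (edgeR, with unadjusted p under 0.05 for 12 in clean air, 8 in formaldehyde and 0 in the interaction). With the pool block, 15 were higher in CA_IP, beside 11.6% of all genes, and 1, the transporter SLC38A2 (named after its value was seen), was lower, beside 5.85% of all genes. In FA_IP 7 were higher, beside 5.45% of all genes, and 0 lower. Of the pathway genes fixed for naming, those that passed in both treatments were PPP1R15A (0.38, SE 0.07, and 0.26, SE 0.07) and SLC3A2 (0.33, SE 0.06, and 0.26, SE 0.06).

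Base content went along with recovery in IP. Over the 17934 tested genes whose most abundant isoform was found in GENCODE 44, the share of guanine in that isoform and the log2 fold change of IP against input had a Spearman correlation across genes of 0.54 in clean air and 0.407 in formaldehyde. The share of guanine and cytosine together gave 0.529 and 0.377, and the guanine share gave 0.17 with FA_IN against CA_IN. Genes within a library share its composition and depth and are not independent. DDIT4 (31.4% guanine), TRIB3 (30.3%), PHGDH (29.96%), SESN2 (29.1%) and CHAC1 (28.5%) lay above the median of 24.7%, as did ATF4 (27.1%) and DDIT3 (26.7%). ASNS (22.6%), VLDLR (22.2%) and PSAT1 (22.1%) lay below it. The part of base content in the recovery of these genes in IP was not tested.

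At the level of isoforms, 39 of the 79 annotated isoforms of the 10 genes present in the tables were tested among 67873. None was called in input, where 0% of all isoforms were, in clean air IP (0.242% of all) or in formaldehyde IP (0.144% of all), and none in the interaction. DESeq2 called 0 of the isoforms of the 10 genes as well, and 0.178%, 1.97%, 1.41% and 0.314% of all isoforms in the same 4 comparisons. At an unadjusted p under 0.05, edgeR held 3, 1, 4 and 1 of them. SESN2 had all its counts in 1 isoform. For ATF4, DDIT4, TRIB3, CHAC1 and PSAT1 1 isoform held 93.1% to 97.3% of the gene's counts on average, and for ASNS 87.7%.

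DDIT3, PHGDH and VLDLR were divided among isoforms, and the division was unsteady. DDIT3-202 took 30.1% to 36.3% of the gene in 6 libraries, 24.0% in replicate 1 of CA_IP and 50.2% in replicate 3 of FA_IN. Only 1 library of FA_IN was high, and its IP partner had 36.3%.
PHGDH-208 took 38.9% and 24.1% of the gene in clean air input against 40.9% and 51.6% in formaldehyde input. The IP shares were 51.0% and 36.4% (clean air) against 51.9% and 33.0% (formaldehyde). The isoform was higher in FA_IN than in CA_IN without overlap, and its log2 fold change of 0.73 (SE 0.37) did not pass, while the shares in CA_IP and FA_IP overlapped. The short VLDLR isoform VLDLR-202 (3240 bases, against 9163 for VLDLR-203) took 6.13% in replicate 3 of FA_IN and 64.0% in replicate 1 of CA_IP, from 24 to 53 expected counts for the whole gene in a library. When the isoform lengths entered the model, the input log2 fold change of VLDLR turned from -0.23 to 0.11.

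**Figure D5:**
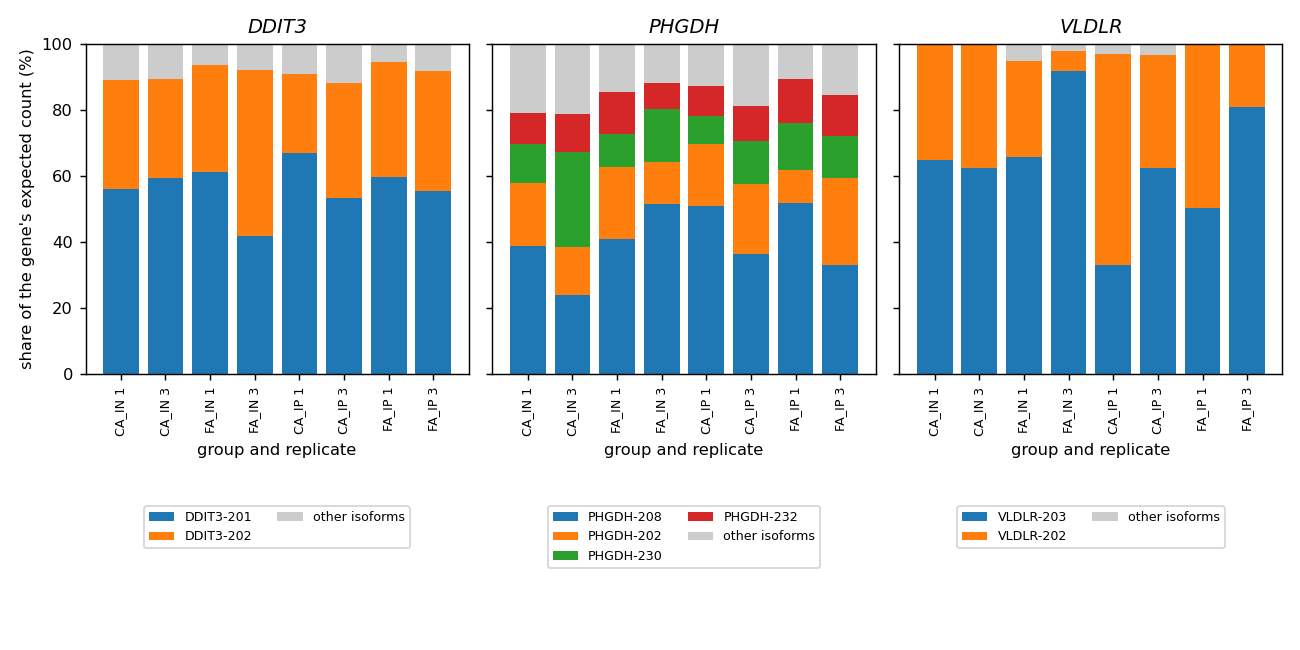
Share of the gene's expected count (%) taken by each isoform that held at least 10% on average, in each of the 8 libraries, for DDIT3, PHGDH and VLDLR, with all other isoforms in grey. The shares differ between replicates of a group as much as between groups, and most for VLDLR.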

How the data were processed

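Input RNA and RNA immunoprecipitated with an antibody against 8-oxoguanine were sequenced as 75-base paired reads. According to the labels and methods, the authors trimmed reads with cutadapt, aligned them to GRCh38 with STAR 2.6.0a and quantified Ensembl isoforms with RSEM 1.2.25. The authors deposited expected counts, which are not normalized, effective lengths and TPM for each isoform. Their 3 deposited tables of DESeq2 comparisons (log2 fold changes and p-values, run in R 3.5.0) were not used.

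Expected counts were summed by gene, rounded and kept where at least 10 in at least 2 libraries. Genes were named through GENCODE 44 (58207 of 58735 matched). Groups were compared with edgeR 4.0.16 (TMM, quasi-likelihood, prior count 0.125) and limma 3.58.1 in R 4.3.3, with 1 mean for each of the 4 groups over all 8 libraries and Benjamini-Hochberg adjustment at 0.05. The script was tested on simulated data. The common dispersion of 0.0190 corresponds to a coefficient of variation of 0.138 between replicates. Reads had no molecular identifiers, so depth covers counting error only. Without a block, p-values measure the spread between libraries of a group, pooled over the 4 groups. Input and IP libraries of these groups share RNA pools, so the spread does not come from independent cultures alone. With the pool as a block, they measure how the difference of IP from input varied between pools, taken over both treatments with 2 residual degrees of freedom. In either model edgeR draws the spread of a gene towards that of other genes. The p-values therefore do not rest on the variation of that gene alone. Figures used Python 3.11.15.

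Replicates are numbered 1 and 3 by the deposited tables. Libraries of one treatment and number came from one RNA pool, as the methods describe, so the pool served as a block. Differences between replicates correlated across genes between input and IP of a treatment (Pearson 0.552 in clean air, 0.41 in formaldehyde). Between groups of different treatments the values were 0.3185 to 0.42. The formaldehyde value therefore does not set the pool apart from the replicate number. The alternatives were DESeq2 1.42.0 on 8 or 4 libraries, edgeR on 4, library size, no filter, replicate and pool blocks, an effective length offset and each library left out. The 10 genes, the pathway list and the markers were chosen with earlier results of these data known. All 10 genes are named, with 12 pathway genes fixed by role, any other that passed in input or the interaction or was among the 3 largest that passed in a comparison without a block, and isoforms of at least 10% of their gene. No columns were left unmatched.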

Additional observations from a re-analysis of the deposited data

How the results depend on the processing

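With 2 cultures a group, the calls depended on the model more than the fold changes did. The count of genes called in input was 1, 3 with DESeq2 on 8 or on 4 libraries, 0 with edgeR on 4 libraries (663 at an unadjusted p under 0.05) or with effective lengths (672), 100 without the filter and 258 with a replicate block. In CA_IP against CA_IN the count was 349, 1157 with library size, 686 without the filter, 1941 with the replicate block and 3179 with the RNA pool block. In FA_IP against FA_IN it was 274, 561, 578, 953 and 1835 in the same order. For the interaction it was 0, 3 with DESeq2 on 8 libraries, 52 without the filter, 3 with the replicate block and 25 with the pool block. With 1 library left out, the counts ran from 0 to 1 in input, 194 to 318 in clean air IP, 121 to 282 in formaldehyde IP and 0 to 5 for the interaction. The input count of 0 arose without replicate 1 of CA_IN, either replicate of FA_IN or either of CA_IP (214 to 730 at an unadjusted p under 0.05), the clean air count fell by over 1.5 times without replicate 1 of CA_IN (217) or of CA_IP (194), and the formaldehyde count without replicate 1 of FA_IN (121) or either replicate of FA_IP (146 and 161).

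Of the 10 genes, 1 (DDIT4) was called in input without the filter, and 1 (DDIT4) with the replicate block (log2 fold change -0.52, adjusted p = 0.0196). Deviations of CA_IN and FA_IN replicates correlated across genes (Pearson 0.42). In CA_IP the replicate block called 2 (PHGDH, adjusted p = 0.045, and SESN2, adjusted p = 0.0107) and the pool block 5, and in FA_IP the pool block called 4. Neither block changed another call of the 10.

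Directions turned for small values. Library size gave PSAT1 -0.014 in input and 0.13 in CA_IP, and TRIB3 0.0055 in the interaction. ASNS in the interaction became -0.00034 with the replicate block and -0.0079 with the pool block. Effective lengths gave VLDLR 0.11 in input, -0.15 in FA_IP and -1.03 in the interaction. With 1 library left out, ASNS ran from -0.38 to 0.48 in input, -0.33 to 0.50 in CA_IP, -0.49 to 0.62 in FA_IP and -0.62 to 0.52 in the interaction. In input PSAT1 ran from -0.0067 to 0.038, SESN2 from -0.27 to 0.022 and VLDLR from -0.51 to 0.0060. DDIT4 ran from -0.083 to 0.37 in FA_IP. In the interaction the ranges were -0.28 to 0.13 for ATF4, -0.086 to 0.13 for DDIT3, -0.17 to 0.16 for TRIB3, -0.12 to 0.17 for PHGDH, -0.078 to 0.34 for CHAC1, -0.25 to 0.064 for SESN2, -0.33 to 0.13 for DDIT4 and -0.17 to 0.35 for VLDLR. In each of these fits the group with 1 library left was taken to vary like the others. Apart from the construction of each alternative, the cause was not tested.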

Other observations

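The distance between the replicates of ASNS was examined after its values were seen. Among the 8939 genes with a mean of at least 10 CPM, 4248 had replicate 1 on the same side of replicate 3 in all 4 groups. Ranked by the smallest of the 4 log2 differences, ASNS stood at 30, and DDIT4, the next of the 10 genes, at 2042. ASNS was not alone in the wider pathway list. Replicate 1 lay above replicate 3 by 0.66 to 0.96 for NDRG1 and by 0.60 to 0.81 for TXNIP in the 4 groups. SERPINB3, a squamous epithelial protease inhibitor, led that order with log2 differences of replicate 1 from replicate 3 between -3.28 and -2.90, followed by CA9, a carbonic anhydrase, with values 1.71 to 1.87 higher, and CLCA2, with differences between -1.64 and -1.33. The ranking orders the same 8 libraries and carries no test.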
